A study of Mus musculus with 15 samples.

Results

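The genes described here are 9 proneural and neuronal fate factors: Neurod1, Neurog2, Myt1, Myt1l, St18, Insm1, Prox1, Eomes and Dcx. They were picked by symbol, each matched 1 Ensembl identifier, and together they are 9 of the 55416 genes in the count table. RNA was sequenced from 3 stable lines of neural precursor cells, cultured from the hippocampus of female mice aged 6 weeks, with 5 libraries per line and 15 in all. The Atf4 line carries the Atf4 coding sequence behind the doxycycline-responsive TRE3G promoter, the Atf3 line carries that of Atf3, and the control line carries the same piggyBac cassette (Tet-On transactivator and puromycin resistance) without either. All 3 lines lost EGF and FGF to start differentiation, all 3 received doxycycline at 100 ng/ml at that moment, and all were harvested 10 h later.

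Each construct is represented by a single stable line, so line and transgene cannot be told apart. The sources used here do not say whether the 5 libraries of a line came from separate cultures, and p-values then measure the spread between these libraries, which may be technical. In bulk RNA, fewer cells of a type and less RNA per cell cannot be told apart.

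Proneural factors are basic helix-loop-helix (bHLH) proteins that bind DNA together with broadly expressed E proteins and push neural precursors out of self-renewal towards a neuronal fate. In the adult dentate gyrus the sequence is well described: Neurog2 and Eomes mark intermediate progenitors, Neurod1 and Prox1 act in the cells that become granule neurons, and Dcx marks the young neurons themselves. Most Hes proteins and the Id proteins, many of them downstream of Notch and BMP signals, hold this sequence back. Zinc finger factors of the Myt1 and Insm1 families act beside the proneural factors.

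In GENCODE M21 on GRCm38, all 9 are protein-coding genes. The bHLH genes are Neurog2 (ENSMUSG00000027967) at chr3:127633135-127635631 on the plus strand and Neurod1 (ENSMUSG00000034701) at chr2:79452521-79456751 on the minus strand. The homeobox gene is Prox1 (ENSMUSG00000010175) at chr1:190118035-190170714 on the minus strand, and the T-box gene is Eomes (ENSMUSG00000032446) at chr9:118478212-118486132 on the plus strand. The zinc finger genes are Insm1 (ENSMUSG00000068154) at chr2:146221921-146225020 on the plus strand, Myt1 (ENSMUSG00000010505) at chr2:181763332-181827797 on the plus strand, Myt1l (ENSMUSG00000061911) at chr12:29528384-29923213 on the plus strand and St18 (ENSMUSG00000033740) at chr1:6487231-6860940 on the plus strand. The microtubule protein gene is Dcx (ENSMUSG00000031285) at chrX:143855842-143933311 on the minus strand.

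The depth per library, as total gene counts in units of 1e6, was 53.7 to 69.6. Levels are written as CPM, which are counts scaled to a common TMM-adjusted library size, and as mean ± SD over the 5 libraries where averaged. Differences between lines are log2 fold changes ± SE, the SE being derived from the test statistic. Atf3, the first transgene, averaged 1.40 ± 0.306 CPM with the Atf4 cassette, 1941 ± 119.5 CPM with its own and 5.02 ± 4.10 CPM in control cells, where replicates 4 and 5 stood apart at 11 and 7.55 CPM. Atf4, the second, averaged 153 ± 21.7 CPM with its own cassette, 250.3 ± 16.5 CPM with that of Atf3 and 83.2 ± 6.75 CPM in control cells. Atf4 mRNA was thus more abundant with the Atf3 cassette than with the Atf4 cassette. Against control, Atf4 was 1.84-fold higher with its own cassette, and Atf3 was 379-fold higher with its own. Reads of the transgene and of the endogenous gene were not told apart. The precursor markers Sox2 (233, 224 and 228 CPM in the Atf4, Atf3 and control lines) and Nes (834, 1018 and 662 CPM) were abundant. Of the 12 mature neuron markers, Slc17a6 had no count in any library and Gad2 none in the Atf4 and control lines. Others of that list were present, such as Camk2a and Syn1 at 52.4 and 20.5 CPM in control cells. Of the 13 listed precursor markers, Tfap2c had no count in the Atf3 and control lines.

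Sequences upstream of 4 members are shown because these genes moved in opposite directions: Prox1 and Myt1 fell in both transgene lines, while Eomes and Neurod1 rose in both. They are the bases before the RefSeq start of each gene nearest its GENCODE start (GRCm38.p6), cut where either RefSeq or GENCODE begins an exon. The stretches are chr1:190170828-190171077 (minus strand) for Prox1, chr2:181763082-181763331 (plus) for Myt1, chr9:118477939-118478185 (plus) for Eomes and chr2:79456752-79456886 (minus) for Neurod1. Capitals mark E-boxes (CANNTG, the bHLH site) and the TATA-like run TATATAA, each found on either strand. The TATATAA of Neurod1 lies outside the stretch shown.
Prox1: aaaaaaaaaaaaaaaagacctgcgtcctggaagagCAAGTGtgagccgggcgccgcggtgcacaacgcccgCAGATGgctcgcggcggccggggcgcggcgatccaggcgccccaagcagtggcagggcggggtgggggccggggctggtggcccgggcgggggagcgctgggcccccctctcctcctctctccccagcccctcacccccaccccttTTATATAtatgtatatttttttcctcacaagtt
Myt1: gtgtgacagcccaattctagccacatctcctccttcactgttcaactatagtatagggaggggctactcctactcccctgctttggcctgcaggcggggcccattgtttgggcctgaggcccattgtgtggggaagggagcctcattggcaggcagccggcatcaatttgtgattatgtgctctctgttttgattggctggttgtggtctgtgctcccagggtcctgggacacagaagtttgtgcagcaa
Eomes: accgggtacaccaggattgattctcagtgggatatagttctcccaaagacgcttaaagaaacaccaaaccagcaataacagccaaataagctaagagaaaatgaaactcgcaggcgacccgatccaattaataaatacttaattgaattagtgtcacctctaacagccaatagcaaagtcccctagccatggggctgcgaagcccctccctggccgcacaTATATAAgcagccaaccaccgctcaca
Neurod1: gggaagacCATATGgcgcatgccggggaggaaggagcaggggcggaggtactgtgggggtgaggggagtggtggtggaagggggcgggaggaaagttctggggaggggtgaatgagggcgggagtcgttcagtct

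The set of RefSeq upstream sequences used here held windows of 250 bases before a start for 7 of the 9 genes. St18 and Insm1 had no entry in that set. Several starts were listed for Myt1 (3), Myt1l (5), Prox1 (2) and Dcx (2). For these only the start nearest the GENCODE start was searched, while the windows of all genes cover every listed start. None of the 7 windows held the cyclic AMP response element TGACGTCA (1.55% of all 32851 windows do), its shorter core TGACG (17.8%) or the AP-1 letters TGANTCA (6.75%), all of which ATF proteins can bind. The element bound by ATF4 with C/EBP partners, TGATGNAA (3.45%), occurred once, in the window of Myt1l. E-boxes stood in the windows of Neurod1, Myt1l and Prox1, against 66.2% of all windows. TATATAA stood in those of Neurod1, Neurog2, Prox1 and Eomes, against 3.04% of all windows. This run was searched for after the sequences had been seen, and it is a description of the letters only.

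Prox1 encodes a homeobox factor that specifies dentate granule neurons and was, with Insm1, the most strongly expressed of the 9 genes. The Atf4 libraries held 81.0, 73.7, 75, 79.9 and 64.1 CPM, the Atf3 libraries 46.3, 55.9, 44.8, 50.5 and 56.2 CPM, and the control libraries 132, 147, 132, 142 and 127 CPM. All 3 lines were separate, with the Atf3 line lowest, the Atf4 line between and the control line highest. Against control Prox1 fell by 0.86 ± 0.07 SE in the Atf4 line (edgeR adjusted p = 4.4e-09) and by 1.42 ± 0.07 SE in the Atf3 line (edgeR adjusted p = 2.8e-12). The direct comparison of the Atf4 with the Atf3 line gave 0.56 ± 0.07 SE (edgeR adjusted p = 6.5e-06). Prox1os, an antisense gene at this locus, shares 133 bases with the exons of Prox1, 1.585% of them. The sources used here give no strand setting for the counts. Prox1os averaged 0.959 ± 0.226 CPM with Atf4, 0.637 ± 0.269 CPM with Atf3 and 2.18 ± 0.120 CPM in control cells.

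**Figure D1:**
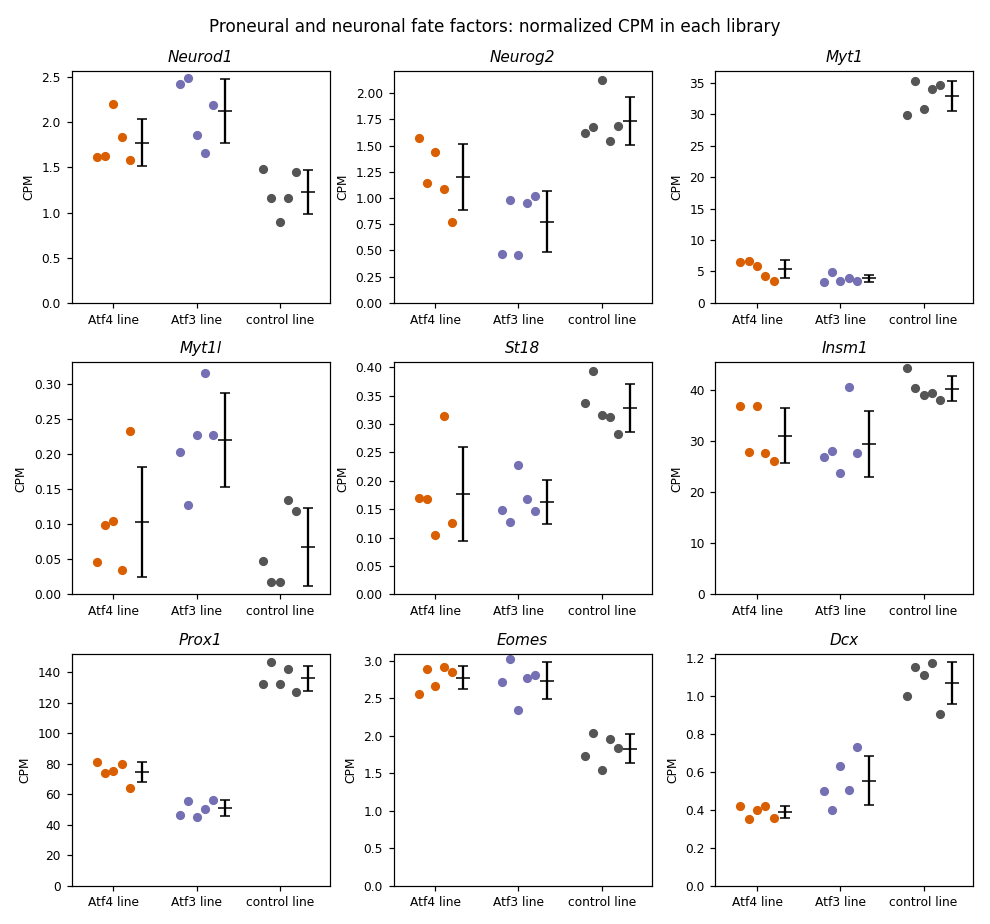
Normalized CPM (vertical axes, each from 0) of the 9 genes in each library (points) of the Atf4, Atf3 and control lines, with the mean and SD of the 5 libraries beside them. Prox1, Myt1 and Dcx libraries of the control line all lie above both transgene lines, and those of Eomes and Neurod1 all lie below.

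Myt1, a C2HC zinc finger factor known both from neuronal differentiation and from oligodendrocyte precursors, changed most among the well expressed genes. Its level was 6.55, 6.59, 5.83, 4.31 and 3.45 CPM in the Atf4 libraries, 3.35, 4.91, 3.55, 4.00 and 3.54 CPM in the Atf3 libraries and 29.9, 35.3, 30.9, 34 and 34.6 CPM in the control libraries. Neither transgene line overlapped the control line, but they overlapped each other. Myt1 was 6.13-fold lower with Atf4 (-2.62 ± 0.14 SE, edgeR adjusted p = 1.3e-11) and 8.52-fold lower with Atf3 (-3.09 ± 0.14 SE, edgeR adjusted p = 9.5e-13) than in the control line. It was higher in the Atf4 than in the Atf3 line by 0.48 ± 0.15 SE (edgeR adjusted p = 0.015). That call ended without Atf4 replicate 2 (0.39, edgeR adjusted p = 0.0503, the alternatives spanning 0.000456 to 0.0503).

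The other members of this zinc finger family were near the limit of detection. St18 had 11, 12, 6, 18 and 7 counts in the Atf4 libraries, 8, 7, 13, 9 and 9 counts in the Atf3 libraries and 21, 22, 18, 21 and 19 counts in the control libraries. The control line stood above the Atf3 line throughout, while Atf4 replicate 4 reached into its range. St18 fell by 0.88 ± 0.26 SE in the Atf4 line (edgeR adjusted p = 0.0072) and by 0.99 ± 0.27 SE in the Atf3 line (edgeR adjusted p = 0.003). Myt1l, which represses non-neuronal genes in neurons, had 3, 7, 6, 2 and 13 counts in the Atf4 libraries, 11, 7, 13, 17 and 14 counts in the Atf3 libraries and 3, 1, 1, 9 and 8 counts in the control libraries. These groups overlapped. Myt1l was higher with Atf3 (1.62 ± 0.49 SE, edgeR adjusted p = 0.0062) and not called with Atf4 (0.52 ± 0.55 SE, edgeR adjusted p = 0.43). Control replicates 4 and 5 held most of the control counts. Without them the values were 2.85 in the Atf3 line (edgeR adjusted p = 0.000807) and 1.75 in the Atf4 line (edgeR adjusted p = 0.0457). Without Atf4 replicate 5 the Atf4 value was 0.013. St18 and Myt1l reached the expression filter of 0.174 CPM, which 5 libraries had to meet, in only 7 and 5 libraries. For St18 5 of these 7 were control libraries, and for Myt1l 4 of the 5 were Atf3 libraries, so each had to be high in that line to be tested.

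Insm1, a zinc finger factor that promotes the formation of intermediate progenitors, varied more within the transgene lines than within the control line. The Atf4 libraries held 37.0, 27.8, 37.0, 27.7 and 26.1 CPM, the Atf3 libraries 27.0, 28.1, 23.8, 40.6 and 27.6 CPM, and the control libraries 44.4, 40.5, 39.0, 39.4 and 38.1 CPM. The coefficient of variation was 17.4% with Atf4, 22.0% with Atf3 and 6.14% in control cells. Insm1 fell by 0.37 ± 0.12 SE in the Atf4 line (edgeR adjusted p = 0.012) and by 0.45 ± 0.12 SE in the Atf3 line (edgeR adjusted p = 0.0025). Every Atf4 library lay below every control library, whereas Atf3 replicate 4 lay inside the control range. The Atf4 and Atf3 lines were not told apart (0.08 ± 0.12 SE, edgeR adjusted p = 0.61).

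The bHLH members and Eomes did not move together. Neurog2, which activates Eomes and Neurod1 in cortical progenitors, was at 1.57, 1.14, 1.44, 1.09 and 0.772 CPM in the Atf4 libraries, 0.462, 0.982, 0.457, 0.949 and 1.02 CPM in the Atf3 libraries and 1.62, 1.68, 2.13, 1.54 and 1.69 CPM in the control libraries. The Atf3 libraries all lay below the control libraries, in a lower pair (replicates 1 and 3) and a higher trio, and the Atf4 libraries reached into the control range. Neurog2 fell by 1.15 ± 0.22 SE in the Atf3 line (edgeR adjusted p = 1.3e-04). In the Atf4 line its log2 fold change was -0.52 ± 0.21 SE (edgeR adjusted p = 0.038). That call ended without control replicate 3 (-0.45, edgeR adjusted p = 0.0874) and without Atf4 replicate 2, 4 or 5 (-0.51, -0.50 and -0.42, edgeR adjusted p = 0.0627, 0.0669 and 0.0801, the alternatives spanning 0.0148 to 0.0874). With the replicate number as a block it was -0.52 with an edgeR adjusted p of 0.0693, and without control replicates 4 and 5 it was -0.60 (edgeR adjusted p = 0.0537).

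Neurod1, the bHLH factor that new granule neurons need for survival and maturation, was at 1.62, 1.63, 2.20, 1.84 and 1.58 CPM in the Atf4 libraries, 2.42, 2.49, 1.86, 1.66 and 2.19 CPM in the Atf3 libraries and 1.48, 1.16, 0.896, 1.16 and 1.45 CPM in the control libraries. Both transgene lines lay wholly above the control line and overlapped each other. Neurod1 rose by 0.52 ± 0.15 SE in the Atf4 line (edgeR adjusted p = 0.0061) and by 0.78 ± 0.15 SE in the Atf3 line (edgeR adjusted p = 1.3e-04). Of its exon bases 13.0% are shared with other annotated genes, most with Cerkl, and the reads that came from those genes were not measured.

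Eomes, the T-box factor of intermediate progenitors also called Tbr2, was at 2.56, 2.89, 2.66, 2.92 and 2.85 CPM in the Atf4 libraries, 2.72, 3.02, 2.34, 2.77 and 2.81 CPM in the Atf3 libraries and 1.73, 2.04, 1.55, 1.96 and 1.84 CPM in the control libraries. Again the control line lay below both. Eomes was 1.52-fold higher with Atf4 (0.61 ± 0.10 SE, edgeR adjusted p = 2e-05) and 1.5-fold higher with Atf3 (0.58 ± 0.10 SE, edgeR adjusted p = 2.3e-05). Between the Atf4 and Atf3 lines its log2 fold change was 0.02 ± 0.09 SE (edgeR adjusted p = 0.85).

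Dcx is the one member that is not a transcription factor: it encodes doublecortin, which binds microtubules in migrating young neurons. It was at 0.417, 0.351, 0.399, 0.420 and 0.359 CPM in the Atf4 libraries, 0.499, 0.400, 0.632, 0.503 and 0.730 CPM in the Atf3 libraries and 0.996, 1.15, 1.11, 1.17 and 0.905 CPM in the control libraries. These levels rest on 20 to 27, 22 to 45 and 61 to 79 counts. Dcx fell by 1.45 ± 0.16 SE in the Atf4 line (edgeR adjusted p = 4e-07) and by 0.93 ± 0.16 SE in the Atf3 line (edgeR adjusted p = 3.2e-05). It was the one member called lower with Atf4 than with Atf3 (-0.51 ± 0.18 SE, edgeR adjusted p = 0.026). That call ended without Atf3 replicate 3 or 5 (-0.46 and -0.39, edgeR adjusted p = 0.0638 and 0.0875), without Atf4 replicate 2 or 5 (-0.47 and -0.48, edgeR adjusted p = 0.0617 and 0.0502) and under 3 other settings, the alternatives spanning 0.00936 to 0.0875.

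**Figure D2:**
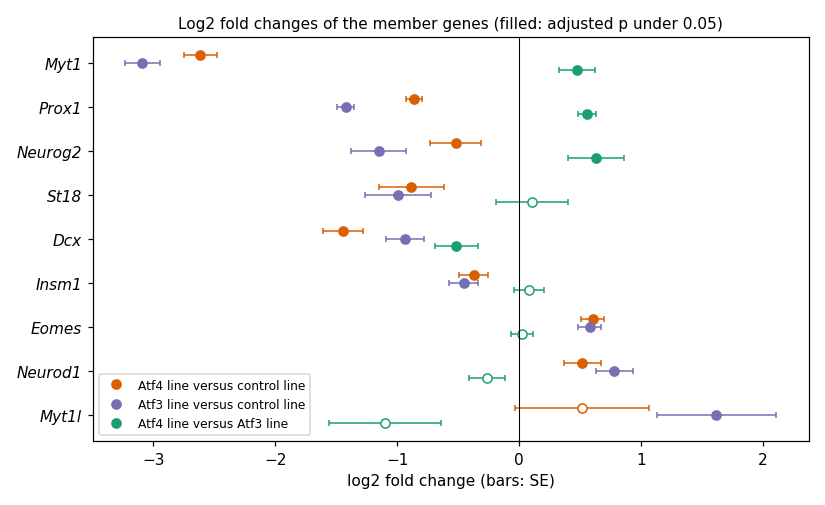
Log2 fold change (horizontal axis) of each gene with its SE, for the Atf4 line against control, the Atf3 line against control and the Atf4 line against the Atf3 line. Filled points passed an edgeR adjusted p of 0.05. Myt1, Prox1, Neurog2, St18, Dcx and Insm1 lie below 0 against control in both lines, and Eomes, Neurod1 and Myt1l lie above it.

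Counted together, 2 of the 9 genes rose and 6 fell in the Atf4 line, and 3 rose and 6 fell in the Atf3 line, all 9 having been tested but St18 and Myt1l having passed the expression filter mainly through 1 line each. Among all 18244 genes tested, 61.6% were called with Atf4 (31.9% higher and 29.7% lower) and 73.2% with Atf3 (36.8% higher and 36.3% lower). The median log2 fold change of the 9 genes was -0.52 in the Atf4 line and -0.93 in the Atf3 line, against medians over all tested genes of -0.001 and -0.017. The lines did not overlap for 6 of the 9 genes in the Atf4 and 7 of the 9 in the Atf3 comparison, where 47.9% and 60.7% of all tested genes did not. Both comparisons share the control libraries. Directly between the lines, Neurog2, Myt1 and Prox1 were higher and Dcx was lower in the Atf4 than in the Atf3 line, where 43.6% of all tested genes were called, 19.7% higher and 23.9% lower. Those lines did not overlap for Prox1 alone, against 25.8% of all tested genes. Only Prox1 held its call there in every alternative. The Neurog2 value, 0.63 ± 0.23 SE (edgeR adjusted p = 0.032), lost its call without Atf3 replicate 1 or 3 (0.50 and 0.49, edgeR adjusted p = 0.0891 and 0.0896) and without Atf4 replicate 1 or 3 (0.52 and 0.57, edgeR adjusted p = 0.089 and 0.0747). It was also lost with the replicate block (0.63, edgeR adjusted p = 0.0665) and with only these lines fitted (0.65, edgeR adjusted p = 0.0574). The genes not yet given for this comparison were not called: Neurod1 at -0.26 ± 0.15 SE (edgeR adjusted p = 0.15), St18 at 0.11 ± 0.30 SE (edgeR adjusted p = 0.79) and Myt1l at -1.10 ± 0.46 SE (edgeR adjusted p = 0.06). Without Atf4 replicate 5 Myt1l was called lower (-1.59, edgeR adjusted p = 0.0094), as it was without Atf3 replicate 2 (-1.24, edgeR adjusted p = 0.0442).

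Per kilobase of annotated exons, the order of the levels differed between lines. In the control line it ran from Prox1 (16.2 ± 0.999 CPM per kilobase) over Insm1 (13.0 ± 0.798), Myt1 (4.58 ± 0.334), Neurog2 (0.778 ± 0.102), Neurod1 (0.451 ± 0.0883) and Eomes (0.439 ± 0.0466) to Dcx (0.0842 ± 0.00886), St18 (0.0508 ± 0.00645) and Myt1l (0.00479 ± 0.00396). Only the neighbours Neurod1 and Eomes overlapped. In the Atf3 line Insm1 (9.49 ± 2.09 CPM per kilobase) stood above Prox1 (6.05 ± 0.630) without overlap, and Neurod1 (0.779 ± 0.132), Eomes (0.657 ± 0.0598) and Myt1 (0.538 ± 0.0877) followed, overlapping from one to the next. Neurog2 came after them at 0.348 ± 0.130 CPM per kilobase. In the Atf4 line Insm1 (10.0 ± 1.75 CPM per kilobase) and Prox1 (8.91 ± 0.801) overlapped, as did each neighbouring pair from Myt1 (0.743 ± 0.195) over Eomes (0.668 ± 0.0383) and Neurod1 (0.650 ± 0.0955) to Neurog2 (0.540 ± 0.142). Dcx, St18 and Myt1l were the lowest 3 in every line and overlapped from one to the next in both transgene lines. By their means Neurod1 and Eomes thus stood below Neurog2 in the control line and above it in both transgene lines. In the Atf4 line the libraries of both overlapped those of Neurog2.

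**Figure D3:**
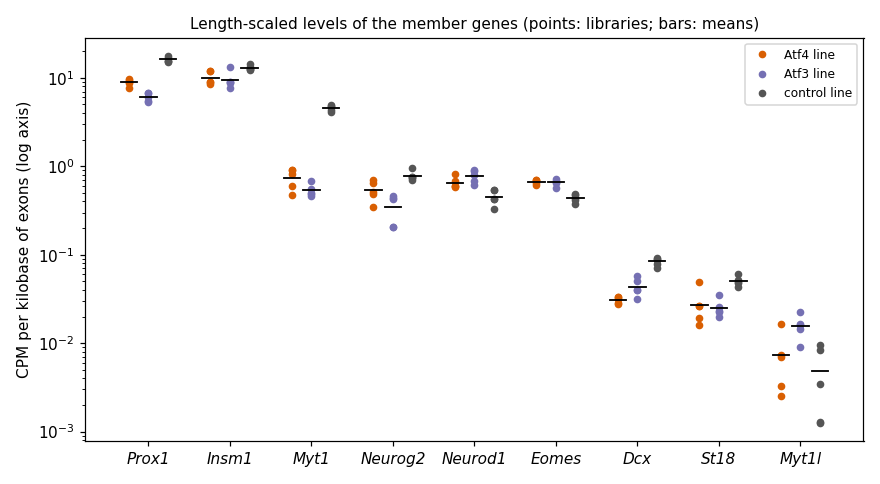
Level per kilobase of merged exons (log axis) in each library, with genes ordered by their control mean. Black bars are line means. Prox1 and Insm1 lie highest in all 3 lines, and Dcx, St18 and Myt1l lowest.

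By the root mean square difference of log2 CPM over the 15 libraries, after subtracting each gene's control mean, the genes most like Prox1 among 13628 candidates were Atp7b (0.0973), Slc38a6 (0.102) and B3gat1 (0.103). Those most like Myt1 were the granin gene Chgb (0.190) and, among the next, Rgs16 (0.223). Insm1 was closest to Celf4 (0.0842), an RNA-binding protein gene of neurons, then to Zfp358 and Nfix. Eomes was closest to Dcaf15 (0.101), to Fendrr (0.102), a long noncoding RNA, and to Pygm. The others had looser matches: Catsperz, Mrpl18 and Cxcl14 for Neurod1 (0.170 to 0.188), Asap3, Phactr1 and Nol4l for Neurog2 (0.184 to 0.222), Ubxn10, Srpk3 and Cdk6 for Dcx (0.225 to 0.235), Clasp2, Sez6l and Zfp994 for St18 (0.217 to 0.219), and Snord43, Snora62 and Rab3a for Myt1l (0.288 to 0.335).

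Genes around the members were described by lists. For all list counts here and below, the shares over all tested genes were 31.9% higher and 29.7% lower with Atf4. With Atf3 they were 36.8% higher and 36.3% lower. Many list counts lie near these shares, and no list was tested against them. Of the 17 listed bHLH genes, 9 were tested, and 4 rose and 4 fell in the Atf4 line, while 3 rose and 4 fell in the Atf3 line. Bhlhe22 rose in both (log2 fold changes of 1.196 ± 0.19 SE with Atf4 and 1.70 ± 0.19 SE with Atf3). The E protein gene Tcf4 fell in both (-0.39 ± 0.04 SE with Atf4 and -0.41 ± 0.04 SE with Atf3), as did Tcf12 (-0.25 ± 0.03 SE with Atf4 and -0.12 ± 0.03 SE with Atf3), while Tcf3 rose in both (0.27 ± 0.04 SE with Atf4 and 0.35 ± 0.04 SE with Atf3). Neurod6 and Nhlh2, genes of later neuronal stages, had no count in any library.

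Genes listed as repressors of the proneural factors were mostly lower as well. None of 13 tested rose and 10 fell in the Atf4 line (median -0.80), and 2 rose and 9 fell in the Atf3 line (median -0.59). These counts include Hes3, at 0.136, 0.0967 and 0.591 CPM in the Atf4, Atf3 and control lines. Hes3 passed the expression filter mainly through the control line. The counts also include Hes6, which promotes neuronal differentiation and so is not such a repressor. Hes6 fell in both lines (-0.38 ± 0.08 SE with Atf4 and -0.60 ± 0.08 SE with Atf3). The Notch effector gene Hes5 averaged 3.32 CPM with Atf4, 1.04 CPM with Atf3 and 11.2 CPM in control cells (-1.75 ± 0.22 SE for Atf4 and -3.44 ± 0.25 SE for Atf3). Hes1, of the same family, averaged 24.6 CPM with Atf4, 58.0 CPM with Atf3 and 51.7 CPM in control cells. It fell with Atf4 (-1.075 ± 0.128 SE) and was not called with Atf3 (0.165 ± 0.125 SE, edgeR adjusted p = 0.24). Id4, whose product binds E proteins and blocks them, fell in both lines (-1.59 ± 0.13 SE with Atf4 and -1.97 ± 0.14 SE with Atf3). Id2 fell in both (-0.98 ± 0.08 SE with Atf4 and -0.64 ± 0.08 SE with Atf3). Bhlhe40 was not called with Atf4 (0.16 ± 0.09 SE) and rose with Atf3 (0.83 ± 0.09 SE).

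Of 11 tested zinc finger factors of neuronal differentiation, 2 rose and 8 fell in the Atf4 line (median -0.45), and 3 rose and 8 fell in the Atf3 line (median -0.55). This list holds 4 of the members. Ikzf2 fell in both lines (-1.02 ± 0.05 SE with Atf4 and -1.203 ± 0.05 SE with Atf3). Zbtb18 rose by 0.13 ± 0.03 SE in the Atf4 line and 0.22 ± 0.03 SE in the Atf3 line. REST silences neuronal genes outside neurons, and of REST and its 11 corepressor genes 5 rose and 4 fell in each line. Rest itself averaged 73.2 CPM with Atf4, 71.6 CPM with Atf3 and 86.5 CPM in control cells (-0.24 ± 0.04 SE and -0.27 ± 0.04 SE). Its corepressor gene Rcor2 fell in both lines (-0.74 ± 0.12 SE with Atf4 and -1.61 ± 0.12 SE with Atf3).

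Among 27 tested homeobox, T-box and other factors of hippocampal neurogenesis, 11 rose and 8 fell in the Atf4 line (median -0.07), and 13 rose and 7 fell in the Atf3 line (median 0.22). Members of one gene family did not all move alike. Sox4, the most abundant gene of this list, averaged 769 CPM with Atf4, 552 CPM with Atf3 and 1283 CPM in control cells and fell in both lines (-0.74 ± 0.11 SE with Atf4 and -1.22 ± 0.11 SE with Atf3). Pou3f1 averaged 136 CPM with Atf4, 305.3 CPM with Atf3 and 62.9 CPM in control cells (1.12 ± 0.20 SE and 2.28 ± 0.20 SE). Lhx2 rose by 0.36 ± 0.05 SE with Atf4 and 0.90 ± 0.05 SE with Atf3, Pou3f2 by 0.58 ± 0.07 SE and 0.55 ± 0.07 SE, and Sox11 by 0.39 ± 0.06 SE and 0.50 ± 0.06 SE. Nfia, a factor of glial differentiation, fell in both lines (-0.50 ± 0.04 SE with Atf4 and -0.51 ± 0.04 SE with Atf3).

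Of 26 tested cytoskeletal and RNA-binding genes of young neurons, 7 rose and 11 fell in the Atf4 line (median -0.12), and 6 rose and 14 fell in the Atf3 line (median -0.16). Tubb3, the neuronal tubulin gene, averaged 42.9 CPM with Atf4, 15.7 CPM with Atf3 and 85.1 CPM in control cells. It was higher with Atf4 than with Atf3 (1.46 ± 0.10 SE, edgeR adjusted p = 2.2e-08). Dclk1, a close relative of Dcx, rose by 0.71 ± 0.07 SE in the Atf4 line and 0.91 ± 0.07 SE in the Atf3 line, and Mapt, encoding tau, fell in both (-0.85 ± 0.06 SE with Atf4 and -0.66 ± 0.06 SE with Atf3). Of 18 tested genes that had been listed as linked to proneural factors, 4 rose and 11 fell in the Atf4 line (median -0.31), and 7 rose and 11 fell in the Atf3 line (median -0.41). Cdk5r1, an activator of the neuronal kinase Cdk5, fell in both lines (-0.64 ± 0.07 SE with Atf4 and -1.12 ± 0.07 SE with Atf3). Tmem158 rose by 1.65 ± 0.13 SE and 2.51 ± 0.13 SE in these lines.

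**Figure D4:**
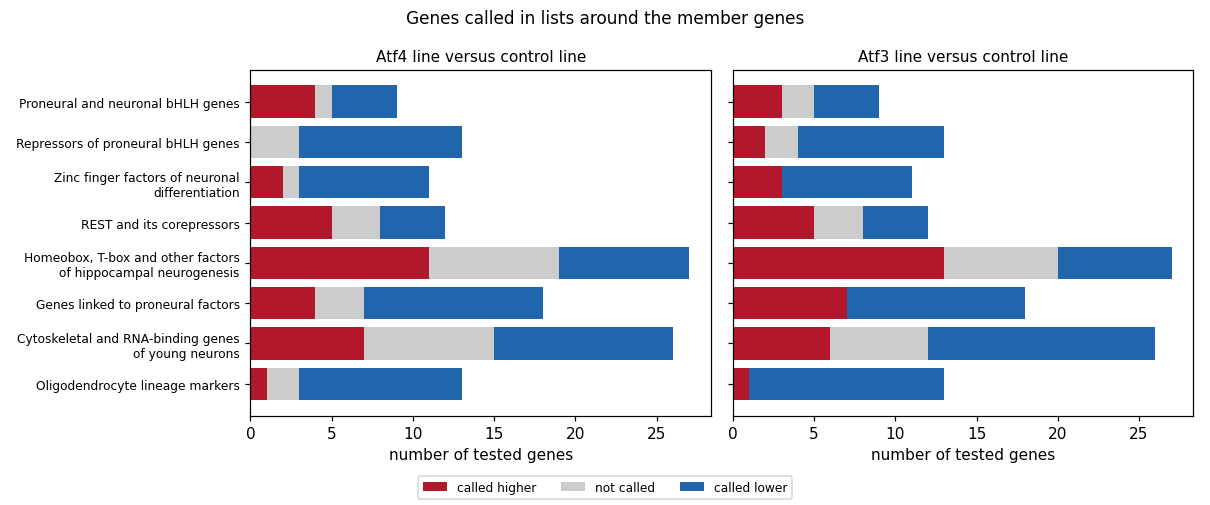
Number of tested genes (horizontal axes) called higher, not called or called lower in 8 lists, for the Atf4 line against control and the Atf3 line against control. Among all tested genes 61.6% were called with Atf4 and 73.2% with Atf3. In the list of proneural repressors, which also holds Hes6, no gene is called higher in the Atf4 line. In the oligodendrocyte list 12 of 13 are called lower in the Atf3 line. These include Sox10 and Gpr17, which passed the expression filter only through the control line.

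Most tested markers of the oligodendrocyte lineage, in which Myt1, St18 and Prox1 are also expressed, fell as those 3 genes did. In the Atf4 line 10 of the 13 tested fell and 1 rose (median -0.58), and in the Atf3 line 12 fell and 1 rose (median -1.21). Sox10 reached at most 0.139 CPM with Atf4 and 0.112 CPM with Atf3, and at least 0.193 CPM in control cells. For Gpr17 these values were 0.108, 0.0182 and 0.311 CPM. Both passed the expression filter of 0.174 CPM only through the control line, so each had to be high there to be tested. Their part in these counts and medians is no further support. The summed level of the 15 listed markers was 3937 to 4855 CPM in the Atf4 libraries, 3348 to 4221 CPM in the Atf3 libraries and 4868 to 5426 CPM in the control libraries. Most of this sum was Olig1, with 2574, 2030 and 2571 CPM in the Atf4, Atf3 and control lines, and Olig2, with 1141, 1168 and 1339 CPM. Olig1 was not called with Atf4 (0.002 ± 0.06 SE, edgeR adjusted p = 0.98) and fell with Atf3 (-0.34 ± 0.06 SE, edgeR adjusted p = 6.1e-05). Nkx2-2 had no count in the Atf4 and control lines. Olig2 fell in both lines (-0.23 ± 0.06 SE with Atf4 and -0.20 ± 0.06 SE with Atf3), while Bcas1 rose by 0.50 ± 0.05 SE with Atf4 and 0.63 ± 0.05 SE with Atf3. The part of these cells in the results for Myt1, St18 and Prox1 was not tested.

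The other marker lists gave mixed counts. Of 9 tested mature neuron markers 3 rose and 3 fell in the Atf4 line, and 4 rose and 3 fell in the Atf3 line. Their summed level was 35.4 to 42.9 CPM in the Atf4 libraries, 32.5 to 35.3 CPM in the Atf3 libraries and 78.9 to 85.3 CPM in the control libraries. Camk2a made up 9.06, 3.76 and 52.4 CPM of it in the Atf4, Atf3 and control lines, and the other 11 genes together averaged 30.7, 29.7 and 31.2 CPM. Of 11 precursor markers 6 rose and 3 fell in the Atf4 line, and 4 rose and 3 fell in the Atf3 line. Of 7 astrocyte markers 2 rose and 5 fell in the Atf4 line, and 2 rose and 3 fell in the Atf3 line. Of 6 endothelial and lymphatic markers, another lineage that uses Prox1, 3 rose and 2 fell in the Atf4 line, and 3 rose and 3 fell in the Atf3 line, with a summed level of the 9 listed of 24.7 to 28.5 CPM, 17.3 to 23.4 CPM and 50.8 to 54.1 CPM in the Atf4, Atf3 and control libraries. Kdr made up 16.4, 10.1 and 44.3 CPM of it in the Atf4, Atf3 and control lines, and the other 8 genes together averaged 10.7, 10.2 and 7.63 CPM. Of 2 tested microglia markers 1 rose and 1 fell in each line, with summed levels of the 6 listed of at most 1.47 CPM. The part of these lists in the members' results was not tested.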

How the data were processed

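RNA sequencing of 15 libraries is given as raw counts per gene, whole numbers deposited by the authors without normalization. The submitters' processing notes name STAR, edgeR and the build mm10. The sources used here give no versions, counting program, strand setting or annotation release. Per the labels' protocols, a NEBNext Ultra kit was used and reads came as pairs of 150 bases. Line and replicate number come from the titles.

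Symbols, coordinates and exon lengths are from GENCODE M21 on GRCm38, the assembly mm10 denotes, and 52083 of 55416 identifiers had a symbol. The count table went through edgeR 4.0.16 in R 4.3.3: TMM scaling, filterByExpr with a minimum count of 10 (18244 of 35525 genes with any count), 1 coefficient per line, the quasi-likelihood test, two-sided, and Benjamini-Hochberg adjustment over all tested genes, with calls at an adjusted p under 0.05. The SE is the size of the log2 fold change divided by the square root of F. Likeness used log2 of CPM plus 0.1. Within each line every pair of libraries exceeded sampling noise (chi-square from 5.47 to 53.4 for each degree of freedom).

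The members, the 13 lists (199 entries of 190 genes, 1 without a match) and the tests were chosen with earlier results of these data known. Named are all members, both transgenes, 10 further genes, up to 2 higher and 2 lower genes per list with the smallest adjusted p in each comparison with control, and the 3 most alike genes per member. A subset is printed, some named genes are not reported here, and Prox1os was added for its overlap. Sox4 and Olig1, the most abundant genes of their lists, were added after their values were seen, and so was Hes6, whose role differs from that of its list. Hes1, Hes3, Sox10 and Gpr17 were also added after their values were seen. Neurod6, Nhlh2, Slc17a6, Gad2, Nkx2-2 and Tfap2c were named as listed genes without counts in 2 or 3 lines. Syn1 was added as a listed neuron marker with counts. Alternatives were DESeq2 1.42.0, limma-voom (limma 3.58.1), RLE scaling, no filter, a filter at 1 CPM, only the lines compared, a replicate block and left-out libraries.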

Additional observations from a re-analysis of the deposited data

Results flagged for a closer look

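Within each line the members and both transgenes were checked for a library far from the other 4, in 33 groups of 5 libraries, where chance flags about 1 group in 20. Insm1 stood apart in Atf3 replicate 4, at 40.6 CPM with the nearest other Atf3 library at 28.1 CPM, and without that library its log2 fold change against control was -0.59 in place of -0.45. Neurog2 stood apart in control replicate 3, at 2.13 CPM with the nearest control library at 1.69 CPM, and without that library its fall in the Atf3 line was -1.09.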

How the results depend on the processing

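Across 23 alternatives all 9 genes kept their direction and their call in the Atf3 line against control, wherever they were tested. In the Atf4 line 7 of 9 did so, Neurog2 and Myt1l being the exceptions, as given above. These counts include St18 and Myt1l, which passed the expression filter mainly through 1 line each. For these genes a held call is no further support. In the direct comparison of the Atf4 with the Atf3 line Prox1 stayed called, and Neurod1 and Insm1 stayed uncalled with 1 sign, in all alternatives. There the number of members called lower was 1, but 2 with limma-voom, 0 with no filter, 0 with the filter at 1 CPM, 0 with only the 2 lines compared, 0 with the replicate block, 2 without control replicates 4 and 5, and 0 to 2 without single libraries; most of these changes concern Dcx and Myt1l. At 1 CPM Dcx, St18 and Myt1l were not tested. Signs turned only in values that were never called. Between Atf4 and Atf3, leaving out 1 library gave -0.179 to 0.256 for St18 and -0.029 to 0.061 for Eomes. Olig1 in the Atf4 line was -0.004 with DESeq2, -0.004 with RLE scaling, -0.032 with the filter at 1 CPM, -0.002 with only the 2 lines compared, -0.001 with the replicate block and -0.037 to 0.022 without single libraries. Sox2 in the Atf3 line was 0.004 with no filter and -0.055 to 0.007 without single libraries, and in the Atf4 line -0.001 with the filter at 1 CPM and 0 to 0.039 without single libraries. Same-numbered libraries did not deviate together (correlations of -0.07 to 0.093, and 1 of 5 libraries closest to its own number in each comparison). No pairing by number was thus seen, though this cannot show whether same-numbered libraries were handled together. The replicate block called 6630 genes higher and 6502 lower with Atf3, against 6721 and 6630 without it, and 5691 and 5277 in the Atf4 line, against 5821 and 5425. Between the Atf4 and Atf3 lines 3413 were higher and 4176 lower with it, against 3595 and 4363. Ranking by the longest transcript exchanged Neurod1 and Eomes in the control line and St18 and Myt1l in the Atf3 line. Counts under about 25 per library limit what can be said of St18 and Myt1l.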
